A study of Mus musculus with 7 samples.

Results

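The proteasome genes were examined in livers of mice with and without a hepatocyte deletion of *B4galt1*, the gene of a galactosyltransferase that builds N-linked glycans. The 44 genes were all rows of the liver count table named as proteasome subunits, assembly chaperones, activators or inhibitor (the Psma, Psmb, Psmc, Psmd, Psme, Psmf and Psmg families), without the interferon-inducible subunits *Psmb8*, *Psmb9* and *Psmb10*, out of 23347 rows in all. They fell into 8 genes of the 20S alpha ring, 7 of the 20S beta ring, 6 ATPases and 11 other subunits of the 19S particle, 7 assembly chaperones and 5 activators or inhibitors. All 44 passed the filter on low counts, as did 15179 of the 23347 rows.

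The 26S proteasome degrades proteins that carry ubiquitin chains. Its 20S core is a barrel of alpha rings, which gate the entrance, and beta rings, which hold the proteolytic sites, and its 19S particle binds the ubiquitylated protein, removes the chain, and unfolds the protein with a ring of ATPases. Dedicated chaperones assemble the particle and the core, and NFE2L1, a transcription factor of the endoplasmic reticulum that is released by the p97 ATPase and cut by the protease DDI2, is known to raise proteasome genes when proteasome activity falls.

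RNA was sequenced from whole liver of male mice on a C57BL/6 background that had eaten CDAHFD, a high-fat diet that lacks choline and holds defined L-amino acids in place of protein and that produces fatty liver with inflammation and fibrosis, for 15 weeks, starting at an age of 6 to 8 weeks. The 4 control livers came from *B4galt1* flox/flox littermates without Cre, labelled WT. The 3 others came from mice labelled *B4galt1*-HKO (*B4galt1* hep-/-). In these, Cre under the albumin promoter is meant to remove the floxed gene from hepatocytes, and not from every liver cell. Each library came from 1 mouse, both groups ate the same diet, and chow-fed mice were not analysed here.

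*B4galt1* itself was at 48.7, 53.0, 49.2 and 51.6 CPM (read counts normalised to a common library size) in flox/flox livers 1 to 4 and at 28.4, 23.9 and 53.7 CPM in the livers labelled hep-/- 1 to 3. On this scale the third library labelled hep-/- was above every control library, while on the FPKM scale, at 11.9 against 12.2–14.0, it was below every control. CPM here also divides by a normalisation factor, 0.879 for this library and 0.936–1.14 for the controls, and FPKM does not. The difference between groups did not pass (log2 fold change -0.52 ± 0.26 SE, adjusted p = 0.181 by edgeR's quasi-likelihood test). It passed with limma on log2(FPKM + 1) (-0.67, adjusted p = 0.0398) and not on the other FPKM fits (adjusted p = 0.0525 and 0.127), DESeq2 (0.168) or voom (0.0571). Without liver 3 labelled hep-/-, the liver with the highest *B4galt1* of its group, it was -0.96 (adjusted p = 0.0139 by edgeR). That liver was picked by its *B4galt1* level, so this p is no independent test of the deletion. Total counts ranged from 37838654 to 39668509 in the controls and from 30608271 to 34586588 in the livers labelled hep-/-. Mitochondrially encoded genes took 3.88–7.996% of the counts in the controls and 14.4–22.6% in the other group. Hepatocyte markers were present throughout, and 0 of 7 changed. Of 7 macrophage markers, 4 fell, none was at 0, and their summed level was 1059–2358 CPM in the controls and 485–544 CPM in the livers labelled hep-/-. None of 7 stellate and fibroblast, 5 cholangiocyte, 7 lymphocyte and 3 neutrophil markers changed, while 1 of 5 endothelial markers fell and, of 5 erythroid markers, 1 fell and 1 rose. The part of macrophages in the differences below was not tested, and in whole liver fewer cells of a type and less RNA per cell cannot be told apart.

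Part of the proteasome transcripts were lower in the livers labelled hep-/-, with subunits of the 19S particle and chaperones of its base among them. Of the 44 genes, 11 fell (25.0%) and 0 rose, where a gene counts as changed if edgeR's adjusted p is under 0.05 and its log2 fold change is past 0.58 in either direction. Of all 15179 genes tested, 7.83% fell and 8.0% rose, 15.8% in all. Among the 19S subunits that are not ATPases, 5 of 11 fell (*Psmd13*, *Psmd2*, *Psmd14*, *Psmd3* and *Psmd7*). Among the assembly chaperones 3 of 7 fell (*Psmd10*, *Psmd5* and *Psmd9*), and there was 1 of 6 ATPases (*Psmc1*), 1 of 8 alpha subunits (*Psma5*), 0 of 7 beta subunits and 1 of 5 activators or inhibitors (*Psme4*). At an unadjusted p under 0.05, 19 of the 44 were lower, beside 16.1% of all genes. With the adjusted p alone and no threshold on the fold, the number stayed at 11, beside 7.93% of all genes lower and 16.0% in either direction. Differences between the classes were not tested.

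The median log2 fold change of the 44 genes was -0.30, beside 0.02 for all genes tested. It was below 0 for 33 of them (75.0%), beside 48.7% of all genes. In 18 (40.9%) every liver labelled hep-/- lay below every control liver, beside 15.0% of all genes, and in 0 it lay above, beside 13.6%. Without flox/flox liver 4, 18 of the 44 lay below and 4 lay above every control, beside 17.8% and 16.4% of all genes. The 33 genes that did not pass had log2 fold changes from -1.10 to 0.32 and adjusted p from 0.0520 to 0.893 by edgeR, and the groups did not overlap in 7 of them (*Psma6*, *Psma8*, *Psmb2*, *Psmb7*, *Psmc3*, *Psmd1* and *Psmd8*). These 7 belong to the 18 above, and no share over all genes that did not pass stands beside them.

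The count of 11 depended on single livers. It was 4 without flox/flox liver 2, 4 without liver 2 of the group labelled hep-/-, and 6 without its liver 1. The share of all genes that fell dropped as well, from 7.83% to 3.16%, 3.84% and 5.21% in the same fits. All 11 had a log2 fold change below 0 in every alternative run. So did genes that passed in none of them, such as *Psmb5* and *Psmc4*, and the 11 were selected from these same livers.

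**Figure D1:**
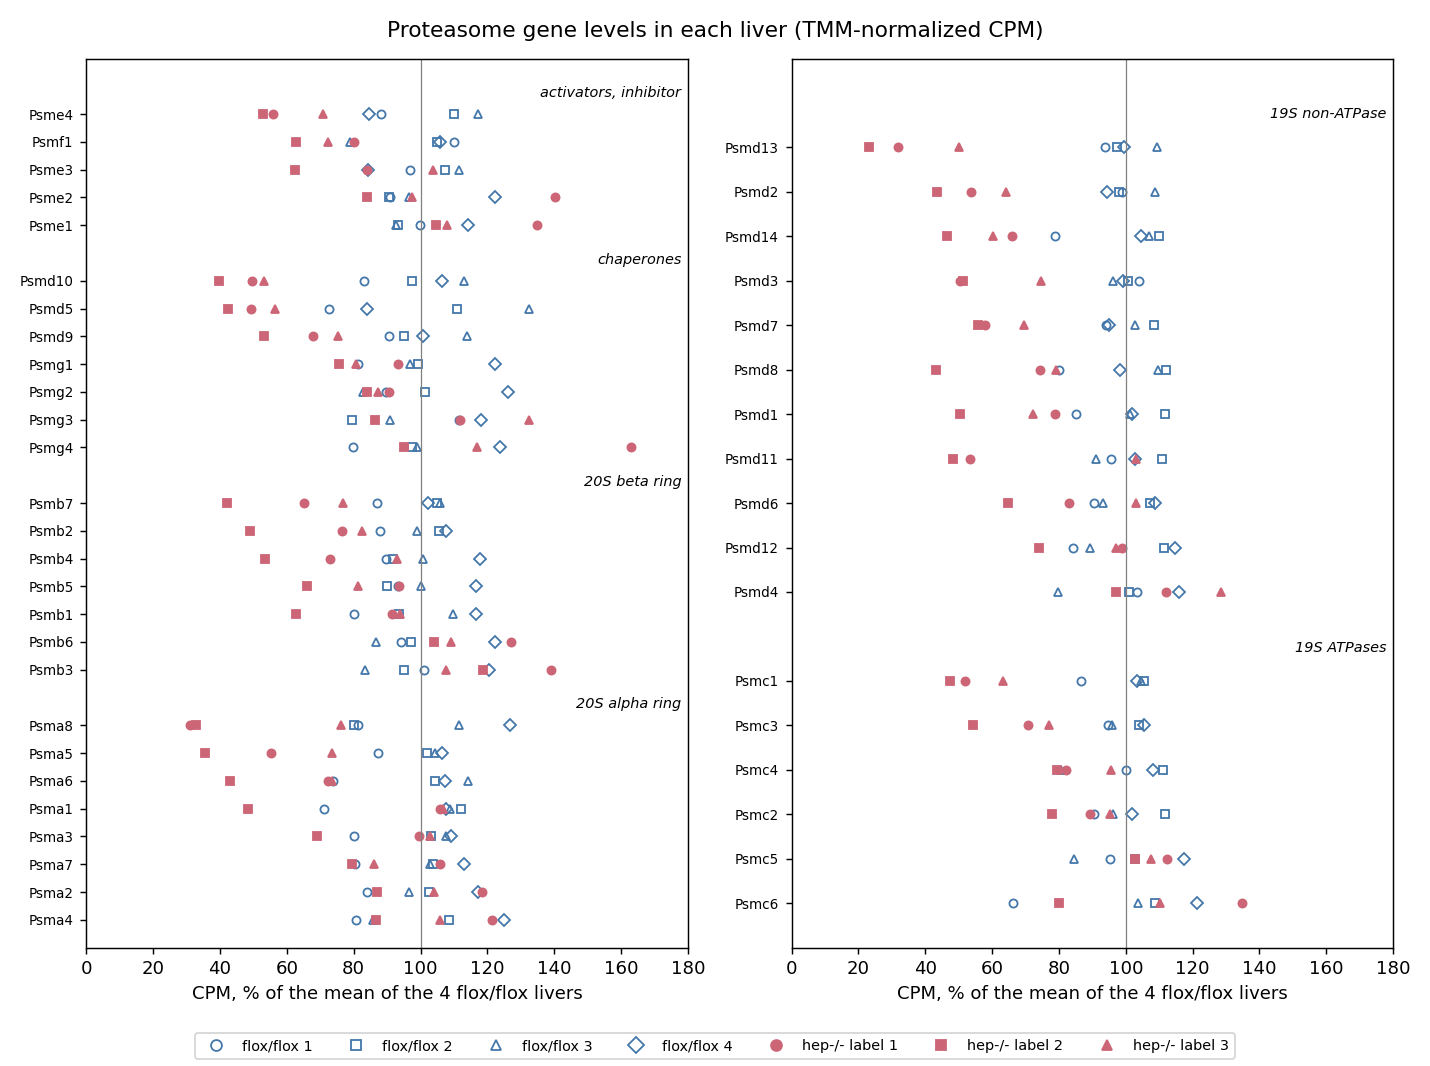
Level of each of the 44 proteasome genes in each of the 7 livers, as a percent of the gene's mean over the 4 flox/flox livers (normalised CPM), with genes grouped by their place in the proteasome. The livers labelled hep-/- have medians of 82.7%, 62.6% and 86.7%, and liver 2 of that group is the lowest of the 3 in 41 of the 44 genes. Scaled by the library total alone, it is the lowest in 21.

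The largest decrease was that of *Psmd13* (gene 23997), a subunit of the 19S lid. Its level was 65.4, 67.8, 76.2 and 69.4 CPM in flox/flox livers 1 to 4 and 22.1, 16.3 and 34.96 CPM in the livers labelled hep-/- 1 to 3. The groups were well apart, with the highest liver of the lower group still under the lowest control. The mean was 35.1% of the control mean, and the log2 fold change was -1.51 ± 0.25 (SE, adjusted p = 0.00510 by edgeR).

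*Psmd2* (gene 21762) is the scaffold of the 19S base, to which ubiquitin shuttle proteins dock. It was at 141, 140, 155 and 135 CPM in the controls and at 76.9, 62.3 and 91.6 CPM in the livers labelled hep-/-. No liver of one group reached the other, and the log2 fold change was -0.89 ± 0.19 (SE, adjusted p = 0.0132 by edgeR).

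*Psmd14* and *Psmd7* form the deubiquitinating pair of the lid, in which *Psmd14* cuts off the ubiquitin chain and *Psmd7* holds it in place. *Psmd14* (gene 59029) was at 39.3, 54.8, 53.2 and 52.1 CPM in the controls and at 32.9, 23.2 and 30.0 CPM in the other livers. Flox/flox liver 1 was the lowest control, yet above all 3. Its log2 fold change was -0.80 ± 0.20 (SE, adjusted p = 0.0227 by edgeR). *Psmd7* (gene 17463) was at 60.8, 70.1, 66.5 and 61.4 CPM in the controls and at 37.5, 36.1 and 45.1 CPM in the livers labelled hep-/-, again without overlap. Its log2 fold change was -0.71 ± 0.17 (SE, adjusted p = 0.0211 by edgeR). Neither passed without flox/flox liver 2 or without liver 2 labelled hep-/-, *Psmd14* also did not without flox/flox liver 4, and *Psmd7* also did not without liver 1 labelled hep-/-.

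*Psmd3* (gene 22123), another lid subunit, was nearly level over the controls, at 74.6, 72.1, 69.0 and 71.1 CPM, and was at 36.1, 36.9 and 53.5 CPM in the livers labelled hep-/-. Liver 3 stood above the other 2 of its group and below every control. The log2 fold change was -0.77 ± 0.19 (SE, adjusted p = 0.0235 by edgeR), and it did not pass without flox/flox liver 2 or without liver 1 or 2 labelled hep-/-.

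The other 6 lid and base subunits did not pass the test. *Psmd8*, *Psmd1* and *Psmd11* had log2 fold changes of -0.61, -0.57 and -0.55 with adjusted p of 0.104, 0.0780 and 0.160 by edgeR. In *Psmd8* and *Psmd1* the groups did not overlap. *Psmd4*, a ubiquitin receptor of the particle, had the only value above 0 of the 11, with 111, 108, 85.3 and 124 CPM in the controls and 120, 104 and 137 CPM in the livers labelled hep-/- (log2 fold change 0.17 ± 0.20 SE, adjusted p = 0.58 by edgeR). The ratio of *Psmd13* to *Psmd4* within a liver, on the FPKM scale, which divides by gene length, was 0.503, 0.534, 0.760 and 0.476 in the controls and 0.157, 0.133 and 0.216 in the other livers. This pair was chosen after the values were seen, and the ratio is given without a test.

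*Psmc1* (gene 19179), one of the 6 ATPases that unfold substrates, was at 89.7, 109, 108 and 107 CPM in the controls and at 53.9, 49.0 and 65.5 CPM in the livers labelled hep-/-. The groups were separate, and its log2 fold change was -0.88 ± 0.19 (SE, adjusted p = 0.0120 by edgeR). The ATPases form one ring with 1 copy of each, yet *Psmc1* was the only one to pass. *Psmc3* had a log2 fold change of -0.57 with an adjusted p of 0.0605 by edgeR and no overlap between groups. *Psmc6* lay at the other end, at 56.6, 92.9, 88.7 and 104 CPM in the controls and 115, 68.3 and 94.2 CPM in the livers labelled hep-/- (log2 fold change 0.12 ± 0.25 SE, adjusted p = 0.775 by edgeR).

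**Figure D2:**
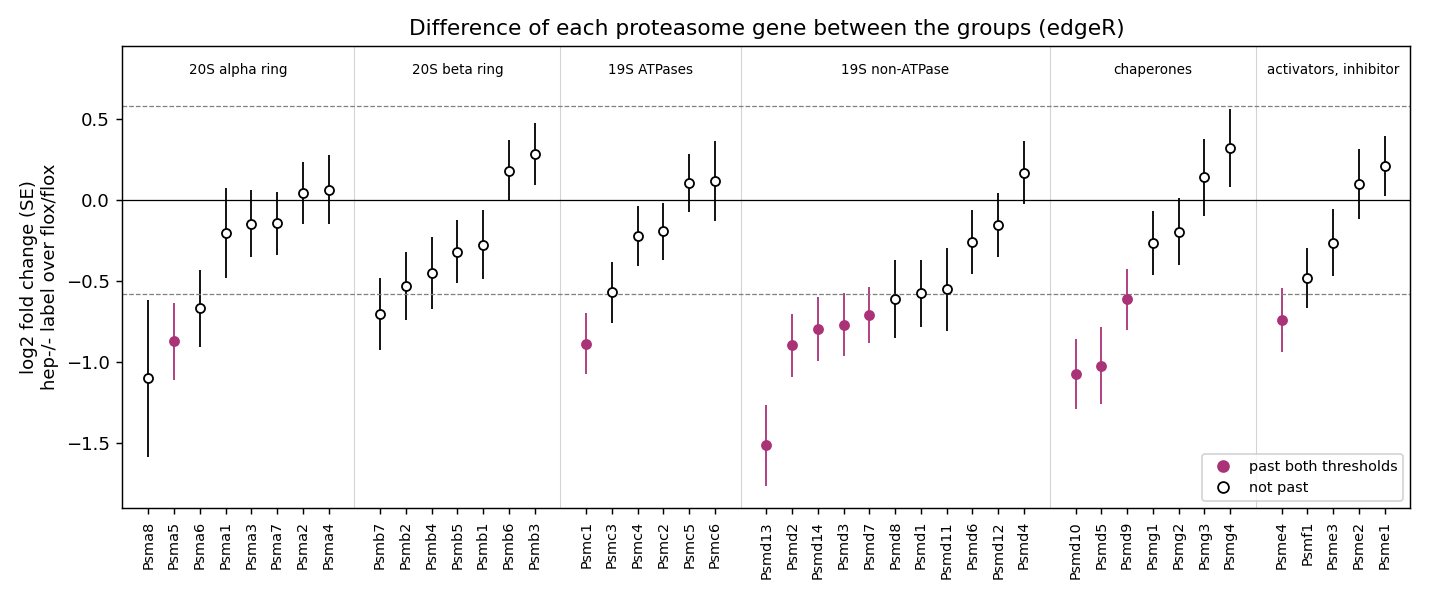
Log2 fold change of each proteasome gene, livers labelled hep-/- against flox/flox, with its standard error, ordered within each functional class. The genes that fell are filled, *Psmd13* is lowest at -1.51, and the highest, *Psmg4*, is at 0.32 and did not pass the test.

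*Psmd10*, *Psmd5* and *Psmd9* are chaperones that each hold part of the ATPase ring during assembly of the 19S base and leave before the particle is complete. *Psmd10* (gene 53380, gankyrin) was at 11.6, 13.7, 15.9 and 14.9 CPM in the controls and at 6.95, 5.55 and 7.47 CPM in the livers labelled hep-/-. Its log2 fold change was -1.07 ± 0.22 (SE, adjusted p = 0.00992 by edgeR). The groups were separate, with a mean of 47.5% of the control mean.

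*Psmd5* (gene 66998) was at 17.8, 27.3, 32.6 and 20.7 CPM in the controls and at 12.1, 10.4 and 13.8 CPM in the livers labelled hep-/-. The controls were more spread than those of *Psmd10*, without reaching the other group. The log2 fold change was -1.02 ± 0.24 (SE, adjusted p = 0.0176 by edgeR), and it did not pass without flox/flox liver 2 or without liver 2 of the group labelled hep-/-. *Psmd9* (gene 67151) was at 45.5, 47.7, 57.1 and 50.5 CPM against 34.1, 26.6 and 37.8 CPM, also without overlap. Its log2 fold change was -0.61, close to the threshold, with an adjusted p of 0.0452 by edgeR. It did not pass in 5 of 7 fits that left out a liver (flox/flox 2, 3 or 4, or liver 1 or 2 labelled hep-/-), nor with upper-quartile normalisation, the filter of 1 count or voom.

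The 4 chaperones of the 20S core, *Psmg1* to *Psmg4*, which pair up to build the alpha ring, did not pass. *Psmg4* was highest of all 44 genes on the log2 fold change, at 0.32 ± 0.24 (SE, adjusted p = 0.373 by edgeR). It was at 8.67, 10.6, 10.7 and 13.4 CPM in the controls and at 17.7, 10.3 and 12.7 CPM in the livers labelled hep-/-, so that liver 1 alone stood above the controls.

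In the alpha ring, *Psma5* (gene 26442) was the only subunit to fall. It was at 51.9, 60.6, 62.1 and 63.3 CPM in the controls and at 32.8, 21.1 and 43.8 CPM in the livers labelled hep-/-, and the groups were separate. Its log2 fold change was -0.87 ± 0.24 (SE, adjusted p = 0.0311 by edgeR). It did not pass without flox/flox liver 2, 3 or 4 or without liver 1 or 2 labelled hep-/-. *Psma6*, which gave -0.67, did not pass (adjusted p = 0.0782 by edgeR) though its groups did not overlap. *Psma4* lay at 0.06 (adjusted p = 0.860 by edgeR), with 102, 138, 109 and 158 CPM in the controls and 154, 110 and 134 CPM in the other livers.

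*Psma8*, an alpha subunit known from the testis, was the least abundant of the 44. It was at 1.20, 1.18, 1.64 and 1.86 CPM in the controls and at 0.455, 0.483 and 1.12 CPM in the livers labelled hep-/-, where 3 counts correspond to 0.0689–0.0986 CPM. Its log2 fold change of -1.10 ± 0.48 (SE) did not pass (adjusted p = 0.136 by edgeR).

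The beta ring carries the proteolytic sites, and 0 of its 7 genes passed. *Psmb7* (gene 19177), the trypsin-like subunit, came closest. It was at 104, 125, 126 and 122 CPM in the controls and at 77.8, 50.4 and 91.7 CPM in the livers labelled hep-/-, with no overlap (log2 fold change -0.70 ± 0.22 SE, adjusted p = 0.0520 by edgeR). *Psmb5* (gene 19173), the chymotrypsin-like subunit, was at 104, 101, 112 and 131 CPM against 105, 73.9 and 91.0 CPM, and the groups overlapped (log2 fold change -0.32 ± 0.19 SE, adjusted p = 0.277 by edgeR). *Psmb6* (gene 19175), the caspase-like subunit, was at 106, 110, 97.6 and 138 CPM against 143, 117 and 123 CPM, with the groups again mixed (log2 fold change 0.18 ± 0.19 SE, adjusted p = 0.540 by edgeR). *Psmb3*, a subunit without a catalytic site, had the highest value of the ring, at 0.28 (adjusted p = 0.324 by edgeR).

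The ratio of a pair of genes within a liver does not depend on the scaling between livers. On the FPKM scale, the ratio of *Psmb7* to *Psmb6* was 1.04, 1.21, 1.38 and 0.941 in the controls and 0.577, 0.456 and 0.792 in the livers labelled hep-/-. That of *Psmb5* to *Psmb6* was 1.27, 1.18, 1.48 and 1.22 in the controls and 0.941, 0.811 and 0.954 in the others. Both ratios separated the groups. They were chosen after the values were seen and were not tested.

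The interferon-inducible subunits replace the catalytic ones in the immunoproteasome, *Psmb8* for *Psmb5*, *Psmb9* for *Psmb6* and *Psmb10* for *Psmb7*. None of the 3 changed. Their log2 fold changes were 0.26 for *Psmb8*, -0.00 for *Psmb9* and 0.15 for *Psmb10*, with adjusted p of 0.387, 0.999 and 0.623 by edgeR. Within a liver, the FPKM ratio of *Psmb10* to *Psmb7* was 0.322, 0.218, 0.210 and 0.287 in the controls and 0.527, 0.532 and 0.373 in the livers labelled hep-/-. The groups did not overlap (two-sided exact permutation p = 0.0286, the smallest that 4 against 3 livers can give, and 0.0857 adjusted over the 3 ratios). The ratio of *Psmb8* to *Psmb5* was 0.382, 0.249, 0.268 and 0.276 in the controls and 0.430, 0.466 and 0.425 in the others (exact permutation p = 0.0571, adjusted 0.0857). The ratio of *Psmb9* to *Psmb6*, 0.124–0.206 in the controls and 0.127–0.162 in the others, overlapped (exact permutation p = 0.486). After adjustment none of the 3 ratios passed.

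**Figure D3:**
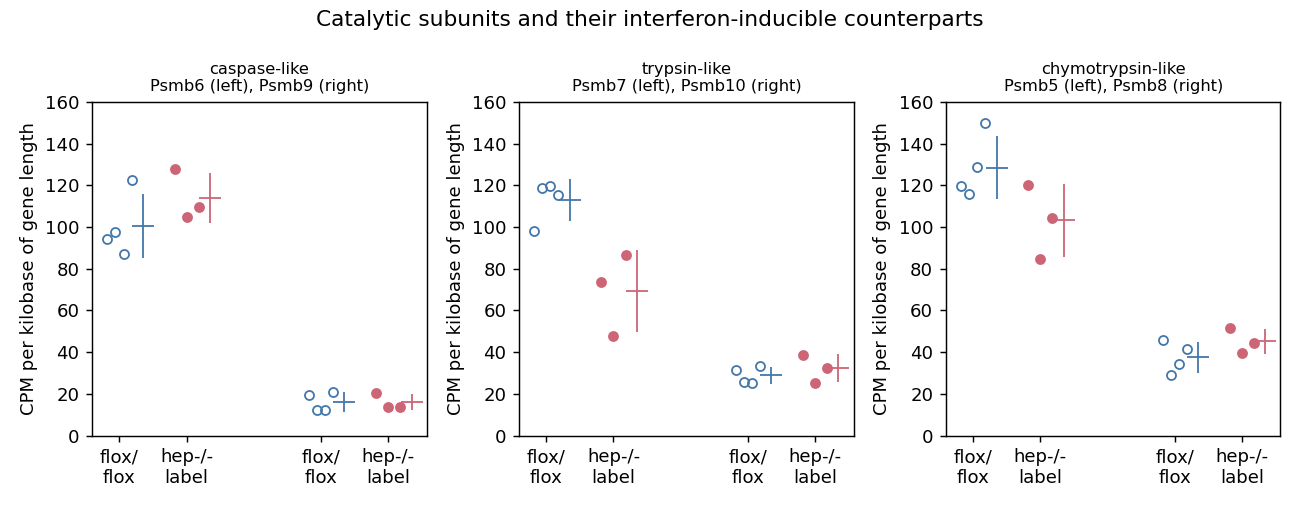
CPM per kilobase of gene length of the constitutive catalytic subunits (left in each panel) and their interferon-inducible counterparts (right) in each liver, with a cross and bar for the mean and SD of the group (4 flox/flox livers, 3 livers labelled hep-/-). *Psmb7* has a mean of 113 in the controls and 69.3 in the livers labelled hep-/-, and *Psmb9* has 16.1 in both.

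Among the activators that open the core from outside the 19S particle, *Psme4* (gene 103554, PA200), a nuclear activator, fell. It was at 70.9, 88.5, 94.1 and 67.8 CPM in the controls and at 44.9, 42.5 and 56.9 CPM in the livers labelled hep-/-, without overlap, and its log2 fold change was -0.74 ± 0.20 (SE, adjusted p = 0.0300 by edgeR). It did not pass without flox/flox liver 2 or 3 or without liver 1 or 2 labelled hep-/-. *Psme1* and *Psme2*, which together form the interferon-inducible PA28 cap, had log2 fold changes of 0.21 and 0.10 with adjusted p of 0.451 and 0.775 by edgeR. *Psme2* has a near-identical copy, *Psme2b*, at -0.41 (adjusted p = 0.231 by edgeR), and reads may have been split between them, so both values are uncertain. *Psmf1*, a binding partner of the core named as an inhibitor, had a log2 fold change of -0.48 and did not pass (adjusted p = 0.0982 by edgeR).

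The levels also differed between members. In the controls, on the FPKM scale, the beta subunits ranged from 70.7 (*Psmb2*) to 165 (*Psmb4*). The alpha subunits other than *Psma8* ranged from 27.9 (*Psma3*) to 114 (*Psma6*) and the ATPases from 37.3 (*Psmc6*) to 84.0 (*Psmc3*). The 19S subunits that are not ATPases ranged from 26.1 (*Psmd11*) to 127 (*Psmd8*). The chaperones lay between 9.97 (*Psmd10*) and 20.2 (*Psmg4*), and the activators and inhibitor between 9.72 (*Psmf1*) and 121 (*Psme1*). The 11 genes that fell had a median of 34.8 FPKM in the controls and the 33 others one of 66.1.

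The 11 genes that fell were also longer, with a median gene length of 1600 bases against 1277 bases for the other 33. Over the 44 genes, Spearman's rho between log2 fold change and length was -0.43, and over all 15179 genes it was 0.05. These are correlations across genes measured in the same 7 libraries, and genes are not independent replicates. The part of transcript length in the differences was not tested.

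Promoters of the proteasome genes were searched for the core of the antioxidant response element, which NFE2L1 binds, in RefSeq windows of GRCm38.p6 that run from 250 bases before to 50 bases after the start site. A window was matched for 36 of the 44 genes. The letters TGACNNNGC, on either strand, stood in 6 of 36 (16.7%), beside 14.0% of 27025 genes with a window. They stood in 2 of the 9 genes that fell and have a window (*Psmd9* and *Psme4*) and in 4 of the 27 others (*Psmc6*, *Psmd12*, *Psmb5* and *Psmb6*). The cyclic AMP response element TGACGTCA, which begins with the same letters, was in 0 of 36, beside 2.03% of all genes, and CCAAT in 12 of 36 (33.3%), beside 41.1%. A match describes letters in a window, not a bound site.

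The 250 bases before the start site are shown for 4 genes, 5′ to 3′ in the direction of the gene, with TGACNNNGC in capitals. *Psmd13* (chr7:140882144-140882393, plus strand) is shown for the largest decrease and holds no match. *Psmd9* (chr5:123227940-123228189, plus strand) is shown as a gene that fell and holds one. *Psmb5* (chr14:54617996-54618245, minus strand) and *Psmb6* (chr11:70525107-70525356, plus strand) are shown as catalytic subunits that hold one and did not pass the test.
Psmd13: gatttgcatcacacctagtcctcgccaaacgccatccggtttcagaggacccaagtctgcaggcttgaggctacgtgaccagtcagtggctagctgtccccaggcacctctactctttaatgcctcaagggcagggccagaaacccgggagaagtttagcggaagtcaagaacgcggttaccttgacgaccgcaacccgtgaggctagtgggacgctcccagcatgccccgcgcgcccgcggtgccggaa
Psmd9: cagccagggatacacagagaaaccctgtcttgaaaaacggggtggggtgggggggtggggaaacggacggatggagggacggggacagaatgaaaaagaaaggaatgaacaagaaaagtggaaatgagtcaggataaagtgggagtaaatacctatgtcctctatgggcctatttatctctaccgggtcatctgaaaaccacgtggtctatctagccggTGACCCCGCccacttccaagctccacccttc
Psmb5: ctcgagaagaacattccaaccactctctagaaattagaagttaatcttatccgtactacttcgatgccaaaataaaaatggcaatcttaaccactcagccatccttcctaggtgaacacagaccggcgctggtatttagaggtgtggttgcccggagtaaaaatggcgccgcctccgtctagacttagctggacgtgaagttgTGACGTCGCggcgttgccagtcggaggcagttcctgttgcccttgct
Psmb6: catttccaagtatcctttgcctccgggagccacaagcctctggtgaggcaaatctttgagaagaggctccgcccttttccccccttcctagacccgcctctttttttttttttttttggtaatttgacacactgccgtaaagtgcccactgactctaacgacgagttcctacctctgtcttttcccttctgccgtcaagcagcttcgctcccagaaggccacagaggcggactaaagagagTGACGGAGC

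*Nfe2l1* itself was at 123, 125, 153 and 115 CPM in the controls and at 125, 103 and 132 CPM in the livers labelled hep-/-, and the groups overlapped (log2 fold change -0.11 ± 0.19 SE, adjusted p = 0.722 by edgeR). *Ddi2*, the protease that activates it, was at 24.8, 20.5, 29.0 and 14.0 CPM in the controls and at 5.49, 8.35 and 10.5 CPM in the livers labelled hep-/-. Every liver of the second group was below every control, and *Ddi2* fell with a log2 fold change of -1.44 ± 0.29 (SE, adjusted p = 0.0104 by edgeR). With all genes above 0 kept on the FPKM scale it did not pass (-1.22, adjusted p = 0.0726 by limma). It was the only one of 8 listed regulators of proteasome genes to change.

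Of the 37 listed genes of the pathway outside the 44, 6 fell and 2 rose, beside 7.83% and 8.0% of all genes. Those that bring substrates to the proteasome were among them. *Vcp*, the p97 ATPase that extracts ubiquitylated proteins, was at 249, 279, 287 and 252 CPM in the controls and at 142, 114 and 171 CPM in the livers labelled hep-/- (log2 fold change -0.90, adjusted p = 0.0149 by edgeR). Its cofactor *Nploc4* fell by 0.79 on the log2 scale (adjusted p = 0.0272 by edgeR). Both were apart between the groups. Of the shuttle proteins that carry ubiquitylated substrates, *Ubqln2* fell by 0.90 on the log2 scale (adjusted p = 0.0453 by edgeR) and *Ubqln4* rose by 0.74 (adjusted p = 0.0182 by edgeR). *Ubqln4* did not pass in the 3 FPKM fits (0.56 to 0.61, adjusted p from 0.0521 to 0.126 by limma) nor without flox/flox liver 2 or 4. *Ubqln2* did not pass with voom, with all genes above 0 on the FPKM scale, or without flox/flox liver 2, 3 or 4 or liver 2 or 3 labelled hep-/-. *Nploc4* did not pass without flox/flox liver 2 or 3 or liver 1 or 2 labelled hep-/-.

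*Uba1*, the main enzyme that activates ubiquitin, was at 143, 148, 166 and 109 CPM in the controls and at 66.4, 65.9 and 82.6 CPM in the livers labelled hep-/-. It fell by 0.98 on the log2 scale (adjusted p = 0.0116 by edgeR), the only change among 6 genes of ubiquitin and its activation. Among 12 partners of the proteasome, *Ube3c*, a ubiquitin ligase found on it, fell by 1.06 on the log2 scale (adjusted p = 0.0168 by edgeR), and did not pass without flox/flox liver 2 or without liver 2 labelled hep-/-. *Akirin2*, a factor for import of proteasomes into the nucleus, rose, from 18.8, 23.5, 25.1 and 27.5 CPM in the controls to 46.2, 33.4 and 34.6 CPM in the livers labelled hep-/- (log2 fold change 0.68, adjusted p = 0.0367 by edgeR). It did not pass in the 3 FPKM fits (0.52 to 0.55, under the fold threshold), nor without flox/flox liver 1, 2 or 3 or liver 1 or 3 labelled hep-/-.

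The livers labelled hep-/- also differed from each other. Relative to the control mean, the median of the 44 genes was 82.7% in liver 1, 62.6% in liver 2 and 86.7% in liver 3, and 89.0%, 103%, 100.5% and 108% in flox/flox livers 1 to 4. Liver 2 was the lowest of its group in 41 of the 44 genes. Scaled by the library total alone, it was the lowest in 21, with 10 for liver 1 and 13 for liver 3. Liver 3, whose *B4galt1* level was above every control in CPM and below every control in FPKM, had every one of the 11 genes that fell below the lowest control. The 11 were selected by a fit that included this liver, so its place in them is no independent check. Without liver 3, 13 of the 44 genes fell, beside 7.51% of all genes.

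The 44 genes together took 0.358–0.381% of all counts in the controls and 0.249–0.279% in the livers labelled hep-/-. These shares also carry the larger mitochondrial share. With mitochondrially encoded genes left out of the fit, 12 genes fell, the 11 above and *Psmb7*, beside 7.92% of all genes.

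**Figure D4:**
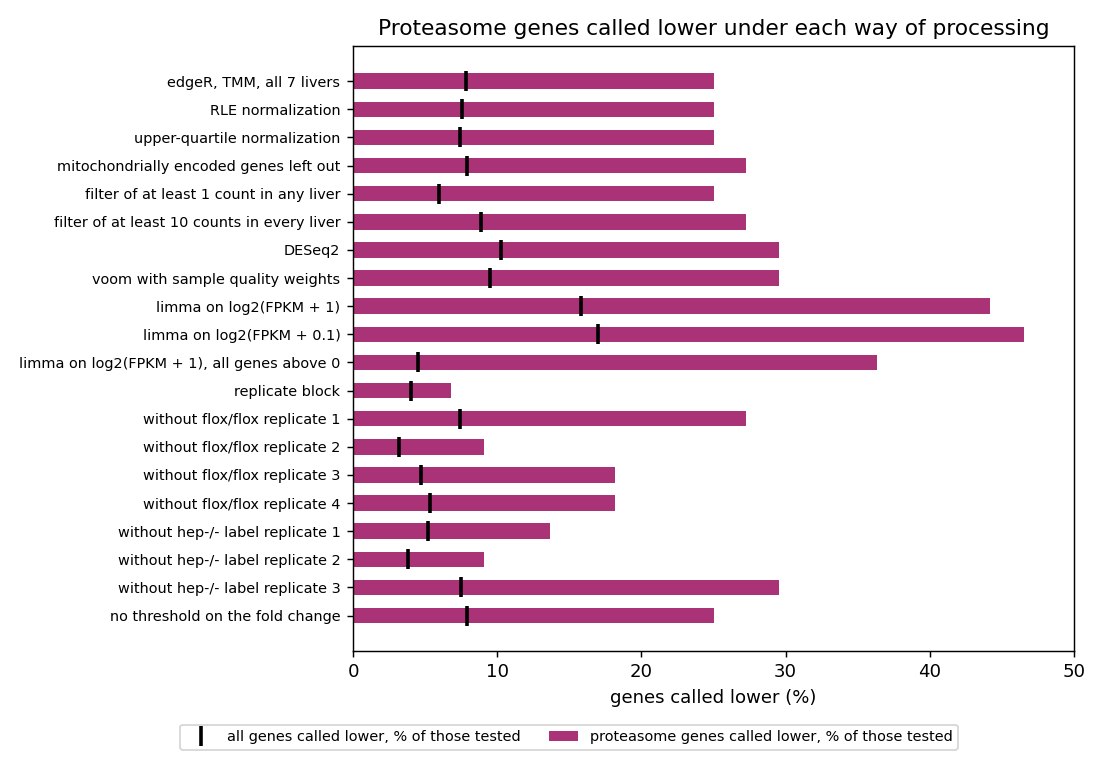
Percent of proteasome genes that fell (bars) and percent of all tested genes that fell (ticks) under each way of processing the data. The bar is at 25.0% and the tick at 7.83% for all 7 livers, and without flox/flox liver 2 they drop to 9.09% and 3.16%, and without liver 2 of the group labelled hep-/- to 9.09% and 3.84%.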

How the data were processed

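The libraries were of RNA from whole liver, 4 from controls (*B4galt1* flox/flox) and 3 from animals labelled *B4galt1* hep-/-. Groups and replicate numbers were taken from the sample titles. The authors deposited raw read counts per gene and FPKM values, which they had scaled by gene length and library total. The submitters' processing notes name fastp, HISAT2, HTSeq, DESeq2, R 3.2.0 and the build GRCm39, without an order. The annotation and strand setting are not given in the sources used here.

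Counts were analysed in R 4.3.3 with edgeR 4.0.16 (TMM, filterByExpr with a minimum count of 10 and total of 15, quasi-likelihood F-test, Benjamini-Hochberg over 15179 genes). A gene was counted as changed if the adjusted p was under 0.05 and the log2 fold change past 0.58 in either direction. CPM values are TMM-normalised, errors are SE of the fit, and the common biological coefficient of variation was 0.301. On this scale 3 counts equal 0.0689–0.0986 CPM, a floor that covers counting error only. Single ratios were tested by two-sided exact permutation. FPKM served for ratios within a liver, levels between genes, the level of *B4galt1* on a second scale, and alternatives. Every pair of livers differed beyond sampling noise (smallest chi-square per gene 58.5 over 21 pairs), so none was counted as 1 sample.

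The functional lists, the 37 pathway genes and the markers were chosen with earlier results of these data known. Values are given for all members that passed, the extremes of each class, the catalytic subunits, *Psme1*, *Psme2*, the interferon-inducible subunits, *Nfe2l1*, listed genes that passed, and *B4galt1*. Members named otherwise were chosen after their values were seen. Alternatives were RLE and upper-quartile normalisation, mitochondrially encoded genes left out, other count filters, no fold threshold, DESeq2 1.42.0, limma 3.58.1 (voom with quality weights, and log2(FPKM + 1) or log2(FPKM + 0.1)), the replicate number as a block, and each liver left out. Promoter windows come from RefSeq on GRCm38.p6, another build than that of the counts, and were matched by symbol.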

Additional observations from a re-analysis of the deposited data

Results flagged for a closer look

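In 3 of 58 genes examined, 1 flox/flox liver stood far from the other 3, a share (5.17%) near the 5% that chance gives. *Psmc1* was at 89.7 CPM in flox/flox liver 1 and at 107–109 CPM in the others, still above every liver labelled hep-/-. *Psma1* was at 57.3 CPM in flox/flox liver 1 and at 86.6–90.3 CPM in the others. *Psmf1* was at 27.7 CPM in flox/flox liver 3 and at 36.9–38.7 CPM in the others.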

How the results depend on the processing

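The count of 11 proteasome genes was 11 to 13 under RLE, upper-quartile normalisation, other count filters, mitochondrially encoded genes left out, DESeq2 and voom, and 0 of them rose under any alternative. It was 19 and 20 with limma on log2(FPKM + 1) and log2(FPKM + 0.1), where 15.8% and 17.0% of all genes fell (1729 and 1856, against 562 and 556 that rose) and the median of all genes moved to -0.14 and -0.18, and 16 with all genes above 0 kept (4.47% of all genes fell), where the count over all genes was 1246 instead of 2404. Leaving out one liver gave 4 to 13 proteasome genes and 885 to 2396 genes in all, with 885 without flox/flox liver 2, 1199 without liver 2 of the group labelled hep-/-, and 1405 and 1552 without flox/flox livers 3 and 4. *Psmd13* and *Psmd10* passed in every alternative. *Psmb7*, which did not pass, passed in 10 of 20 settings. By library total without TMM, 29 genes did not overlap instead of 18 (21.2% of all genes against 15.0%), a choice made after seeing the data. Without one liver 18 to 23 lay below the controls (16.0–21.3% of all genes), and without flox/flox liver 4 another 4 lay above.

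With the replicate block 3 proteasome genes passed (8 of the 11 were lost, and 4.05% of all genes fell) and 1267 genes in all, with *Vcp*, *Nploc4*, *Ubqln2*, *Ubqln4* and *Akirin2* also lost, and flox/flox liver 4, which has no partner, carries no weight in it. The numbers do not pair the mice: deviations of same-numbered livers correlated at -0.42, -0.10 and 0.09, and 1 of 6 livers correlated best with its own number.

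The sign turned only for genes that passed in none of the settings. Of the 44 genes these were 8 (*Psma1*, *Psma2*, *Psma3*, *Psma4*, *Psmc5*, *Psmc6*, *Psme2* and *Psmg3*). *Psmb9* was 0.012 with RLE and DESeq2, 0.015 with the filter of 10 counts in every liver, 0.037 with upper-quartile, 0.0015 without mitochondrially encoded genes, 0.25 with voom and 0.16 with the block. On log2(FPKM + 1), with and without the filter, *Psmc6* was -0.0070, *Psma4* -0.051 and *Psme2* -0.046, and on log2(FPKM + 0.1) they were -0.0070, -0.052 and -0.047. Leaving out one liver gave -0.23 to 0.14 for *Psmb9*, -0.085 to 0.29 for *Psmc6*, -0.069 to 0.19 for *Psma4*, -0.15 to 0.25 for *Psme2* and -0.017 to 0.30 for *Psmb10*. Of 394 values of the 36 single genes followed through the alternatives, with all livers, 343 kept direction and side of the threshold, 25 lost it, 10 gained it and 16 turned. With one liver left out these were 196, 43, 2 and 11 of 252. The causes were not tested. P-values rest on these 7 mice only. Those of the fits set the difference between groups against the spread among mice of the same group.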
